A study of Rattus norvegicus with 6 samples.

Results

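The genes of 10 proteins in chondroitin sulfate and small leucine-rich proteoglycan biology were followed in cultured rat oligodendrocyte progenitors (OPCs), the proliferating cells from which oligodendrocytes, the makers of myelin in brain and spinal cord, arise. They were chosen with earlier results of these data known and looked up by gene symbol in the annotation of the array. All 10 had values, among 13949 genes tested. Of these, 9 encode core proteins (Cspg4, Cspg5, Ncan, Bcan, Vcan, Acan, Ptprz1, Bgn and Dcn) and 1, Xylt1, encodes an enzyme that starts the sugar chains. Each gene was read from 1 probe set, a group of short array probes designed to 1 transcript. No member had a further probe set with values among those with 1 gene symbol. Probe sets with several symbols were not searched for members. The arrays held 2 groups of 3 samples each: unstimulated control cells, and cells given fibrinogen, the clotting protein of blood plasma, for 12 h. All cells came from rat pups of postnatal day 1 to 2 and had recovered for 2 days in a proliferation medium with N2, B27, PDGF and NT3, so the controls too were under growth factors that keep OPCs dividing. Strain, sex, fibrinogen dose and any vehicle given to the controls were not given in the sources used here, and the labels do not say whether replicates were separate cultures, so the p-values rest on a spread that may be technical. The title of the series names BMP signaling in OPCs and myelin repair after vascular damage as its subject.

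A proteoglycan is a core protein that carries long sulfated sugar chains, here mostly chondroitin sulfate. The lecticans (aggrecan, brevican, neurocan and versican) bind hyaluronan at one end and tenascins at the other, and so build the matrix between cells of the brain. Chondroitin sulfate proteoglycans build up in scars of the central nervous system, where they are known to hold back axon growth and the maturation of OPCs. OPCs make several of them themselves, and NG2, the product of Cspg4, is one of their classical surface markers. Small leucine-rich proteoglycans such as biglycan and decorin have short cores that bind collagen and growth factors of the TGF-beta and BMP family.

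The levels are log2 values, so a difference of 1 is a doubling. The median log2 level over genes lay between 6.85 and 6.89 on the 6 arrays. Background was judged from 956 genes for olfactory and vomeronasal receptors, which are used mainly in the nose, and the 95th percentile of their mean levels was 5.51. Of the proteoglycan genes, 9 of 10 had a mean level above it, and Dcn did not. The 7 measured OPC markers were all above it too, as were 7 of 8 oligodendrocyte, 8 of 9 astrocyte and 8 of 10 neuron markers. So were 7 of 10 fibroblast and pericyte, 5 of 11 microglial and 2 of 7 endothelial markers. Of all genes tested, 71.3% lay above this percentile. A count near that share does not by itself show that a cell type was present. Over all genes, the fibrinogen 2 array lay farthest from its group mean (SD of 0.146, against 0.0862 to 0.114 on the other arrays).

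For 3 of the 4 members that passed the test, RefSeq's table of rat promoters (build GRCr8) holds a sequence, and these are shown because the first 2 genes rose and the third fell. Each run is the 250 bases before the annotated start of the gene, 5′ to 3′ on its own strand, with every CG dinucleotide in capitals. The coordinates are chr16:19335657-19335906 (+) for Ncan, chr1:181077972-181078221 (+) for Xylt1 and chr8:66160692-66160941 (+) for Cspg4.
Ncan: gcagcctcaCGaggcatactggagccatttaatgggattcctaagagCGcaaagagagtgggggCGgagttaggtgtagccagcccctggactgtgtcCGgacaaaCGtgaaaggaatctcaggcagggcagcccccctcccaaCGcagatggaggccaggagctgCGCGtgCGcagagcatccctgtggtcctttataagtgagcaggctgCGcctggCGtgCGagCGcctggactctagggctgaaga
Xylt1: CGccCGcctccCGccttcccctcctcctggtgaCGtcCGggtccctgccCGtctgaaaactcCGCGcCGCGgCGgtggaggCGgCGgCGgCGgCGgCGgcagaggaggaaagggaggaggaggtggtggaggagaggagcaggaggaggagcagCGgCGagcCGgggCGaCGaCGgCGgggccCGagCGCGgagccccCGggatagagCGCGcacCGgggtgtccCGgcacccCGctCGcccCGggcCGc
Cspg4: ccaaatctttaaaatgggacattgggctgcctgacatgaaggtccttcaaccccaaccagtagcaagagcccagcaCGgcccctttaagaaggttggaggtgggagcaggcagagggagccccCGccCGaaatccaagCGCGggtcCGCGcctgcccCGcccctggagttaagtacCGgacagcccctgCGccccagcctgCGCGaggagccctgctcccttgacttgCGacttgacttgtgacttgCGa
The Xylt1 promoter had 36 CG dinucleotides and a GC content of 78.4%, the Ncan promoter 13 and 60.8%, and the Cspg4 promoter 14 and 62.0%, against a median of 5 and 51.2% over the 33469 promoters of the table. The table matched 6 of the 10 members. The letters GGCGCC, a GC-rich element that BMP-activated Smads can bind, GTCTAGAC, a palindromic Smad element, and TGACTCA, the AP-1 element, were searched on both strands and stood in 8.70%, 0.173% and 4.05% of all promoters. Among the matched members, 1 match was found, of GGCGCC in the promoter of Acan. The promoters of Ncan, Xylt1 and Cspg4 held none of these letters in this window.

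Fibrinogen-treated cells had a higher level of Bgn, Ncan and Xylt1 and a lower level of Cspg4, while 6 of the 10 members did not pass the test (limma, Benjamini-Hochberg adjusted p under 0.05 over all 13949 genes). Against these 3 rises and 1 fall among 10 genes, 1.81% of all genes rose and 1.29% fell, 3.1% in either direction. Because the members were chosen with earlier results of these data known, these shares do not test the members as a group. Counts before adjustment, at the same cutoff of 0.05, are given below for several lists without such a share of all genes. Bcan lay well under that unadjusted cutoff and ranked only 1241 among the 13949 genes, so at least 1241 genes met it. This bound is low, because it leaves out every gene between Bcan and the cutoff, such as Bmp2. Acan did not meet the cutoff and ranked 3319, so fewer than 3319 genes met it. The unadjusted counts of the lists alone therefore do not mark a list as changed. The median log2 change of the members was -0.14, beside -0.0033 over all genes, with Dcn and Vcan, neither of which passed, next to the middle. The fibrinogen and control arrays did not overlap for 6 of 10 members (Bgn, Ncan, Xylt1, Cspg4, Cspg5 and Bcan), as they did not for 21.3% of all genes. In these bulk samples, a change in RNA per cell and a change in the number of cells of a type cannot be told apart.

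**Figure D1:**
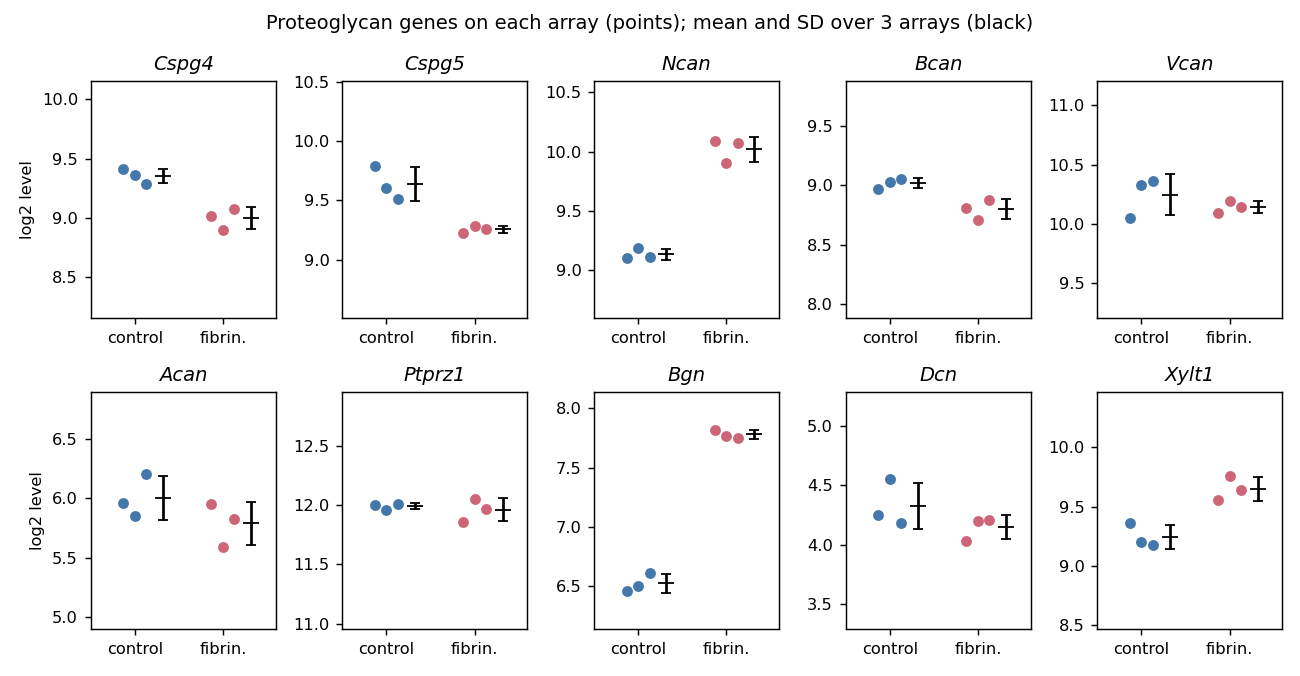
Log2 level (y axis) of each of the 10 genes on the 3 control arrays (blue) and 3 fibrinogen arrays (red), with the mean and SD of each group in black; every panel spans 2 log2 units. Bgn and Ncan show the widest gaps between groups, and Vcan, Acan, Ptprz1 and Dcn overlap.

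Bgn encodes biglycan, a small leucine-rich proteoglycan of the extracellular matrix. Its log2 level was 6.46, 6.50 and 6.61 on control arrays 1, 2 and 3 and 7.82, 7.77 and 7.75 on fibrinogen arrays 1, 2 and 3. The lowest fibrinogen array thus lay more than 1 log2 unit above the highest control array. The log2 change was 1.26 ± 0.07 (SE), with a 95% interval from 1.09 to 1.42 and an adjusted p of 0.000149 in limma, a 2.39-fold rise. By its p-value Bgn ranked 4 among the 13949 genes. Biglycan is plentiful in connective tissue, and fibroblast and pericyte markers were therefore read beside it. Of 10 measured markers of these cells, 0 rose and 0 fell in limma (before adjustment, p was under 0.05 for 1 higher and 1 lower). Their mean log2 level was 6.05 to 6.09 on the control arrays and 6.01 to 6.09 on the fibrinogen arrays. Among those above the receptor percentile, the collagen gene Col1a1 had a log2 change of -0.07 ± 0.07 (SE), Col1a2 of 0.01 ± 0.07, Rgs5, a pericyte gene, of 0.21 ± 0.10 and Tagln, a contractile gene of mural cells, of 0.26 ± 0.08. Col3a1 had a log2 change of -0.11 ± 0.10, Thy1 of -0.07 ± 0.08 and Fbln1 of 0.01 ± 0.07. The groups did not overlap for Tagln (adjusted p = 0.167, limma). They did not overlap for Kcnj8 either, a marker not above the percentile, which had a log2 change of -0.21 ± 0.09 (adjusted p = 0.276, limma). Any part of these cells in the rise of Bgn was not tested.

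Dcn encodes decorin, the closest relative of biglycan in structure. It had log2 levels of 4.25, 4.55 and 4.18 in controls and 4.03, 4.20 and 4.21 with fibrinogen. All 6 values lay below the receptor percentile of 5.51, so the array gave no level of Dcn that stands out from background, and its difference of -0.18 ± 0.11 (SE) did not pass (adjusted p = 0.479, limma). Of 10 further genes of small leucine-rich proteoglycans, 0 rose and 0 fell in limma (also 0 at an unadjusted p under 0.05), and 4 lay above the percentile: Prelp, Optc, Nyx and Tsku. Their median log2 change was 0.065. Tsku encodes tsukushi, a secreted antagonist of BMP, and went from 7.42 to 7.55 (log2 change 0.12 ± 0.10, SE, adjusted p = 0.640, limma). Nyx, the gene of nyctalopin, had a log2 change of 0.15 and Prelp of 0.20.

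Ncan, which encodes the lectican neurocan, rose. Its log2 level was 9.10, 9.19 and 9.11 on control arrays 1, 2 and 3 and 10.09, 9.90 and 10.07 with fibrinogen. The groups were far apart compared with their spread, with SDs of 0.05 and 0.10 (n = 3 each). The log2 change was 0.89 ± 0.08 (SE), with a 95% interval from 0.71 to 1.06 and an adjusted p of 0.00122 in limma, a 1.85-fold rise. Neurocan is made by neurons and astrocytes as well as by cells of the oligodendrocyte lineage, and astrocyte markers moved in the same arrays. Of 9 measured astrocyte markers, 2 rose and 0 fell in limma: Gfap, an intermediate filament protein, by 1.24 ± 0.16 (SE), and Slc1a2, a glutamate transporter, by 0.65 ± 0.07. Before adjustment, p was under 0.05 for 6 higher and 0 lower, and the groups did not overlap for 6 of the 9. S100b had a log2 change of 0.46 ± 0.10 (adjusted p = 0.0516), Fgfr3 of 0.30 ± 0.07, Slc1a3 of 0.23 ± 0.10, Aldoc of 0.21 ± 0.08, and Aqp4, the water channel of astrocytes, of 0.01 ± 0.07. For Gja1 it was -0.04 ± 0.08, and for Gjb6, not above the receptor percentile, 0.08 ± 0.11. The mean log2 level of the 9 markers was 7.64 to 7.73 on the control arrays and 7.97 to 8.07 on the fibrinogen arrays. Of 10 neuron markers 0 rose and 0 fell (before adjustment, p was under 0.05 for 3 higher and 0 lower), with mean levels of 7.08 to 7.12 and 7.17 to 7.39. The part of these markers in the rise of Ncan was not tested.

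The other lecticans did not share the rise of Ncan. Bcan encodes brevican, which is cut by aggrecanases in the brain. It had log2 levels of 8.97, 9.03 and 9.05 in controls and 8.81, 8.71 and 8.88 with fibrinogen. All 3 fibrinogen arrays lay below all 3 control arrays, but the difference of -0.22 ± 0.07 (SE, 95% interval -0.38 to -0.05) did not pass over all genes (adjusted p = 0.188, limma). Vcan encodes versican, a lectican of developing tissue with several splice forms, which 1 probe set does not separate. Its levels were 10.05, 10.33 and 10.36 in controls and 10.09, 10.19 and 10.14 with fibrinogen. Control 1 lay below every fibrinogen array and the other two controls above, and the difference was -0.11 ± 0.09 (SE, 95% interval -0.32 to 0.11, adjusted p = 0.669, limma). Acan encodes aggrecan, the main proteoglycan of cartilage and of the perineuronal nets around neurons. It had levels of 5.96, 5.85 and 6.21 in controls and 5.95, 5.59 and 5.83 with fibrinogen, with overlapping groups and a difference of -0.22 ± 0.12 (SE, 95% interval -0.49 to 0.06, adjusted p = 0.442, limma).

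The difference between 2 genes on the same array removes any shift of a whole array. Such differences were computed for 4 pairs picked after their values were seen. The log2 level of Ncan minus that of Bcan went from 0.13, 0.16 and 0.06 on the control arrays to 1.28, 1.19 and 1.19 on the fibrinogen arrays, a change of 1.10 ± 0.04 (SE). For Ncan minus Vcan it went from -0.95, -1.14 and -1.25 to 0.00, -0.29 and -0.07, a change of 0.99 ± 0.12. Only the change has a meaning, since levels of different probe sets cannot be compared as amounts. The groups did not overlap for either pair, and the exact two-sided permutation test over arrays gave p = 0.1 for each of the 4 pairs (0.1 after Benjamini-Hochberg adjustment), the smallest value that 3 against 3 arrays allow.

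Among the 3 members whose products span the membrane, Cspg4 fell and Cspg5 and Ptprz1 did not pass. Cspg4 encodes NG2, a membrane-spanning proteoglycan of OPCs and pericytes that binds PDGF and collagens. Its log2 level was 9.41, 9.36 and 9.29 in controls and 9.02, 8.90 and 9.08 with fibrinogen. Every fibrinogen array lay below every control array, and the log2 change of -0.35 ± 0.08 (SE, 95% interval -0.53 to -0.18) passed narrowly (adjusted p = 0.0467, limma), which left 78.3% of the control level. Leaving out control 1, 2 or 3 raised the adjusted p to 0.179, 0.173 or 0.119, and leaving out fibrinogen 1, 2 or 3 raised it to 0.109, 0.0670 or 0.0706 (limma). The call thus needed all 6 arrays, while the log2 change stayed between -0.39 and -0.30. Fewer genes passed over all genes too when 1 array was left out, except without fibrinogen 2. Of 7 measured genes in the list of OPC markers, which leaves out Cspg4, 3 fell and 0 rose in limma. These were Gpr17, lower by 0.66 ± 0.10, Neu4, by 0.65 ± 0.09, and Pdgfra, the PDGF receptor of OPCs, by 0.40 ± 0.08 (SE). The list was not split by stage of the lineage. The other OPC markers were C1ql1 with a log2 change of 0.52 ± 0.14, the 1 marker that was higher before adjustment (adjusted p = 0.0923, limma), and the transcription factor genes Olig1, Sox10 and Sox6 with -0.07 ± 0.07, -0.05 ± 0.08 and 0.03 ± 0.10. The median log2 change of the 7 was -0.07, and their mean log2 level was at least 10.20 on each control array and at most 10.08 on each fibrinogen array. Among 8 measured oligodendrocyte markers, 1 rose (Ermn, by 0.91 ± 0.11) and 1 fell (Cnp, by 0.48 ± 0.08) in limma, with a median of 0.08. The part of the markers of either list in the fall of Cspg4 was not tested.

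Cspg5 encodes neuroglycan C, a brain proteoglycan of the cell membrane with an EGF-like domain. Its log2 level was 9.79, 9.60 and 9.51 in controls and 9.22, 9.28 and 9.26 with fibrinogen. The fibrinogen arrays agreed closely and all lay below the controls, which were spread more widely (SDs of 0.03 and 0.14). The difference of -0.38 ± 0.09 (SE, 95% interval -0.57 to -0.19) was as large as that of Cspg4 but lay just outside the threshold (adjusted p = 0.0540, limma). After median centring of the arrays it passed, with an adjusted p of 0.0452. Ptprz1 encodes a receptor-type tyrosine phosphatase whose outer part is also made as the secreted proteoglycan phosphacan. It had levels of 12.00, 11.96 and 12.01 in controls and 11.86, 12.05 and 11.97 with fibrinogen. The groups overlapped, and the difference of -0.03 ± 0.07 (SE) had a 95% interval from -0.20 to 0.14 (adjusted p = 0.903, limma). A change in Ptprz1 as large as that of Ncan lies outside that interval.

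**Figure D2:**
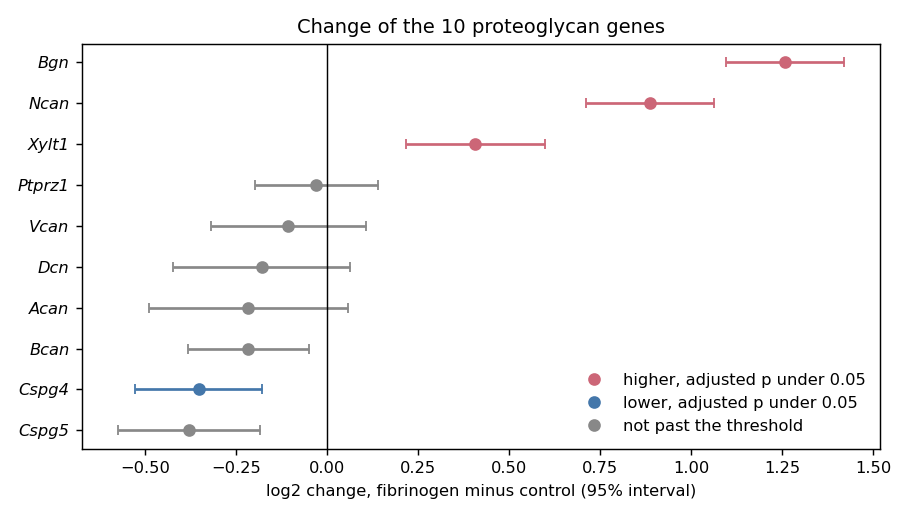
Log2 change from control to fibrinogen (x axis) of the 10 genes, with 95% intervals from limma; red marks genes that rose, blue a gene that fell, grey genes that did not pass at an adjusted p of 0.05. Bgn (1.26) and Ncan (0.89) stand apart on the right, and the 7 other core protein genes lie below 0.

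Xylt1 encodes xylosyltransferase 1, which puts the first sugar, xylose, on the core protein and so starts both chondroitin and heparan sulfate chains. Its log2 level was 9.36, 9.20 and 9.18 in controls and 9.56, 9.76 and 9.64 with fibrinogen. The groups did not overlap, and the gene rose by 0.41 ± 0.08 (SE, 95% interval 0.22 to 0.60), or 1.33-fold (adjusted p = 0.0407, limma). This call too ended when any array was left out: the adjusted p became 0.0632, 0.166 or 0.157 on removal of control 1, 2 or 3, and 0.0630, 0.0680 or 0.0990 on removal of fibrinogen 1, 2 or 3. In these fits the log2 change stayed between 0.35 and 0.46. Median centring gave an adjusted p of 0.0531 (limma). Its paralog Xylt2 had levels of 6.18, 6.21 and 6.14 in controls and 6.05, 6.29 and 6.28 with fibrinogen, with a log2 change of 0.03 ± 0.08 (SE, adjusted p = 0.917, limma). The within-array difference between Xylt1 and Xylt2 changed by 0.38 ± 0.07 (SE), and that between Cspg4 and Ptprz1 by -0.32 ± 0.10, the remaining pairs of the 4.

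**Figure D3:**
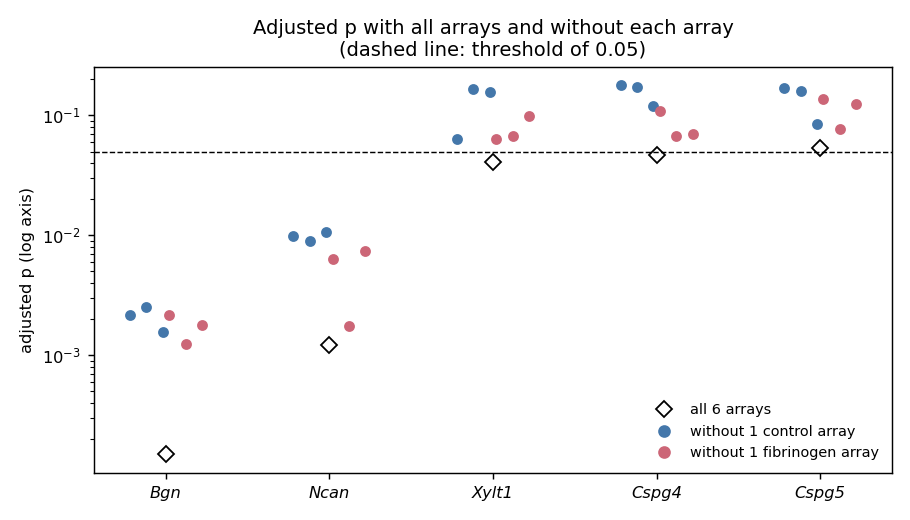
Adjusted p in limma (y axis, log scale) for 5 genes with all 6 arrays (diamonds) and in the fits without 1 control array (blue) or without 1 fibrinogen array (red). Bgn and Ncan stay below the 0.05 line in all 6 of these fits, whereas Xylt1, Cspg4 and Cspg5 lie above it in all 6.

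The genes that build, sulfate, cut and bind chondroitin sulfate were read as lists drawn from general knowledge, with earlier results of these data known. The shares below therefore do not test the lists. Over the core proteins, enzymes and partners in these lists, heparan sulfate genes included, 116 genes other than the members were measured, of which 4 rose (3.45%) and 2 fell (1.72%), beside 1.81% and 1.29% of all genes. The median log2 change of the 116 was 0.06.

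Of 15 measured genes for chain linkage and polymerization, Xylt1 was the member that rose, 0 fell, and the median log2 change was 0.16. Csgalnact1, which commits a chain to chondroitin, had levels of 6.58, 6.76 and 6.73 in controls and 6.94, 7.10 and 6.94 with fibrinogen, and its difference of 0.30 ± 0.08 (SE) missed the threshold (adjusted p = 0.0996, limma). It is named, like the other genes below that did not pass, after its values were seen. Of 11 genes for sulfation 1 rose and 0 fell, with a median of -0.08. That gene was Papss2, a synthase of PAPS, the sulfate donor of every sulfotransferase, with levels of 5.38, 5.43 and 5.31 in controls and 6.02, 6.0 and 5.86 with fibrinogen. It rose (adjusted p = 0.00502, limma), but all 3 control values lay under the receptor percentile, so the size is uncertain. The fitted log2 change was 0.59 ± 0.08 (SE, 95% interval 0.41 to 0.76). Counting the controls of Papss2 at that percentile (5.51) gave 1.37-fold. That is a point value without sampling error and so not a strict lower bound for Papss2. Its paralog Papss1 had a log2 change of -0.17 ± 0.07 that did not pass (adjusted p = 0.327), and the sulfate transporter gene Slc26a2 one of 0.43 ± 0.10 (adjusted p = 0.0591, limma). Chst11, a 4-O-sulfotransferase of chondroitin, had a difference of 0.24 ± 0.11 and Chst3, a 6-O-sulfotransferase, of -0.36 ± 0.19, and neither passed (adjusted p = 0.345 and 0.424, limma).

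Of 10 genes for the breakdown of the chains, 0 rose and 1 fell, with a median of 0.075. Arsb, the lysosomal sulfatase that removes 4-sulfate from chondroitin and dermatan sulfate, had levels of 10.48, 10.61 and 10.63 in controls and 10.09, 10.25 and 10.08 with fibrinogen, and fell by 0.43 ± 0.08 (SE, adjusted p = 0.0258, limma). The call ended on removal of control 1, 2 or 3 (adjusted p = 0.0553, 0.123 or 0.121) and of fibrinogen 1 or 3 (0.0881 or 0.0842, limma). Of 5 measured aggrecanases, the metalloproteinases that cut lecticans, 0 rose and 0 fell in limma (before adjustment, p was under 0.05 for 2 higher and 1 lower). Adamts9 had a difference of 0.47 ± 0.11 (SE, adjusted p = 0.0693), Adamts4 of 0.26 ± 0.08 (adjusted p = 0.132) and Adamts5 of -0.35 ± 0.12 (adjusted p = 0.203, limma).

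Of 14 genes of the hyaluronan matrix, to which lecticans attach, 2 rose and 1 fell, with a median of 0.03. Cd44, a surface receptor for hyaluronan, had levels of 6.41, 6.20 and 6.28 in controls and 7.35, 7.48 and 7.41 with fibrinogen, and rose by 1.12 ± 0.08 (SE, adjusted p = 0.000449, limma). Cemip2, a surface hyaluronidase, rose by 0.41 ± 0.09 (adjusted p = 0.0498), and Hmmr, a hyaluronan-binding protein that also serves the mitotic spindle, fell by 0.33 ± 0.07 (adjusted p = 0.0450, limma). Cemip2 lost its call on removal of control 1, 2 or 3 (adjusted p = 0.187, 0.141 or 0.137) or of fibrinogen 2 or 3 (0.0974 or 0.141), and on median centring (0.0642, limma). Hmmr lost its call on removal of control 1, 2 or 3 (0.176, 0.140 or 0.137) or of fibrinogen 1, 2 or 3 (0.124, 0.0529 or 0.0990, limma). For the hyaluronan synthase gene Has2 the difference was 0.36 ± 0.11, short of the threshold (adjusted p = 0.124). The link protein genes Hapln1, Hapln2, Hapln3 and Hapln4, whose products lock lecticans onto hyaluronan, had differences between -0.04 and 0.14, and that of Tnr, the gene of tenascin-R, was -0.13 ± 0.16 (SE).

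Of 5 measured genes for receptors of chondroitin sulfate and relatives of such receptors, 1 rose and 0 fell, with a median of 0.06. Ptprf, the receptor phosphatase LAR, had levels of 8.38, 8.20 and 8.28 in controls and 8.66, 8.74 and 8.79 with fibrinogen, and rose by 0.44 ± 0.08 (SE, adjusted p = 0.0197, limma). The call ended on removal of control 2 or 3 (adjusted p = 0.102 or 0.0939) or of fibrinogen 3 (0.0678, limma). Its relative Ptprs, the receptor phosphatase sigma, had a difference of -0.07 ± 0.08. Of 12 further proteins that can carry chondroitin sulfate, such as the testicans Spock1, Spock2 and Spock3, 0 rose and 0 fell in limma (before adjustment, p was under 0.05 for 1 higher and 0 lower), with a median of 0.04. Only 4 of these 12 lay above the receptor percentile.

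**Figure D4:**
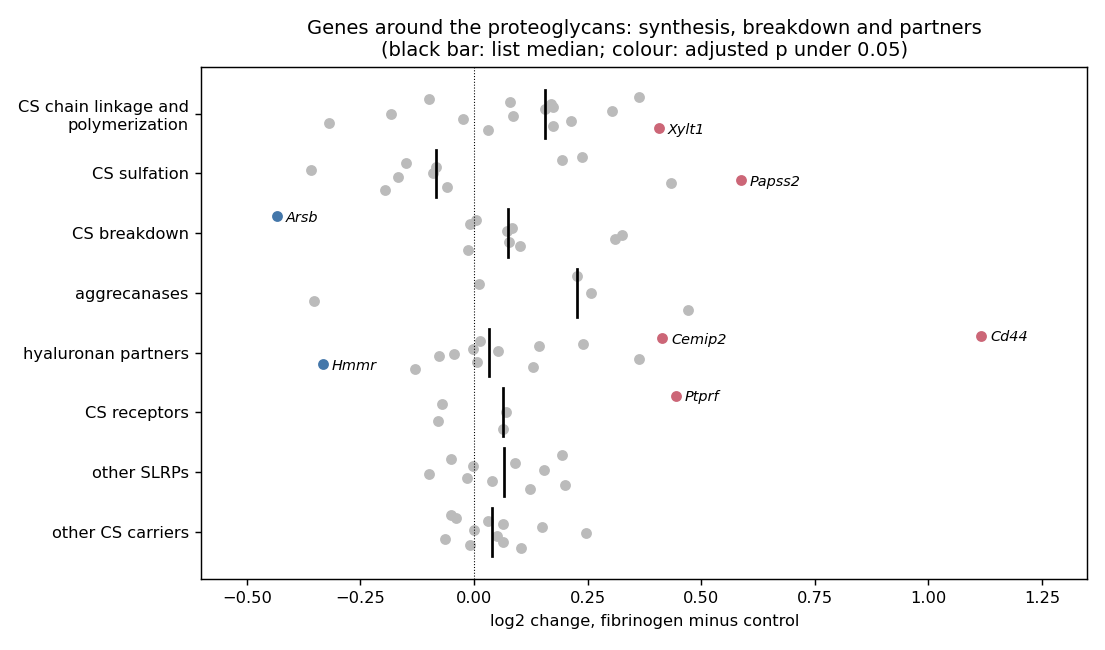
Log2 change from control to fibrinogen (x axis) of each measured gene in 8 lists around the proteoglycans (CS, chondroitin sulfate; SLRPs, small leucine-rich proteoglycans); red and blue mark genes that passed upward and downward, grey the rest, and black bars the list medians. Cd44 (1.12) lies farthest to the right, the place of Papss2 is uncertain because its controls lay under the receptor percentile, and list medians lie between -0.08 and 0.23.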

How the data were processed

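Per the labels' protocols, column-purified, DNase-treated RNA was amplified by a NuGEN whole-transcript method and biotin-labelled. The deposited log2 levels, 1 per probe set and array, were taken to be RMA values, since the submitters' processing notes name RMA and limma without versions or settings. The log2 scale was inferred from the values, and the centring stays unknown. RMA can compress differences, most of all of dim genes. Of 26312 probe sets, 1206 were blank and 14700 of the rest had 1 gene symbol, 275 several and 10131 none. For each gene the probe set with the highest mean was used (13949 genes). Entrez IDs of 14672 probe sets matched RefSeq (GRCr8), and 0 symbols changed.

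The test was limma's (version 3.58.1, R 4.3.3; lmFit and eBayes, two-sided, no covariates), with Benjamini-Hochberg adjustment over all genes. SEs and intervals are limma's moderated ones, SDs are over 3 arrays, and the SE of a change in a within-array difference comes from the variances of both groups. The procedure was tested on simulated data. Named genes were the 10 members, Xylt2 and, per list, up to 4 genes with the largest changes past the threshold. Cell type markers and further genes that did not pass were named after their values were seen. Members, lists and the motifs were chosen with earlier results of these data known. No 2 arrays were copies (at most 3.63% of genes identical). The number of arrays limits the precision.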

Additional observations from a re-analysis of the deposited data

How the results depend on the processing

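In all 13 alternatives Bgn and Ncan passed upward, with log2 changes of 1.23 to 1.30 and 0.85 to 0.95. The 3 rises and 1 fall among the members were less stable. In the fits that left out 1 array, 2 members rose in each and 0 fell in each. Falls numbered 2 after median centring, without dim genes, with trended and robust spread and with array weights, the second being Cspg5, and 0 when all 25106 probe sets were tested. For the other genes of the lists, 9 rose without dim genes and 10 rose and 4 fell with array weights, 1 fell when all probe sets were tested, and leaving out 1 array gave 2 to 5 rises and 0 to 2 falls. The difference of Ptprz1 ranged from -0.075 to 0.02 in these fits, positive without fibrinogen 1, and that of Xylt2 from -0.0117 to 0.108, negative without fibrinogen 2 or 3. Dcn could not be tested without dim genes. Over all genes, median centring gave 212 rises and 228 falls, 48.2% higher against 58.3%. The numbers over all genes also moved with the other settings. They were 337 rises and 258 falls without dim genes (9949 tested) and 308 and 255 with trended and robust spread. With array weights they were 383 and 276, and when all probe sets were tested 178 and 109.

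Same-numbered arrays deviated together only weakly over all genes, with r of 0.0278, 0.0217 and 0.0109, although each array correlated best with its own number. Arrays of different numbers had r from -0.0213 to -0.0016. Such weak correlations cannot decide whether the replicate numbers pair the samples, and this stays unknown. With the replicate number as a block, 2 members rose and 0 fell, 1 other list gene fell, and 195 genes rose and 120 fell.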

Other observations

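Heparan sulfate proteoglycans, which share the linkage enzymes of chondroitin sulfate, had no gene past the threshold in the fit of all 6 arrays and all genes. Of 9 measured core protein genes 0 rose and 0 fell in limma (before adjustment, p was under 0.05 for 1 higher and 0 lower), with a median difference of 0.07 on the log2 scale. The member with the largest difference was Sdc3, the gene of syndecan-3, with levels of 10.88, 10.78 and 10.86 in controls and 11.11, 11.12 and 11.18 with fibrinogen. Its difference of 0.30 ± 0.07 (SE) did not pass there (adjusted p = 0.0584, limma), but 1 core protein gene, Sdc3, passed without dim genes, with trended and robust spread and with array weights. Of 14 genes that build or edit heparan sulfate chains, 0 rose and 0 fell, p before adjustment was under 0.05 for 5 higher and 0 lower, and the median was 0.07. Without the share of all genes under that unadjusted cutoff, the 5 cannot be read as a rise of the list. Of 12 genes for growth factors, receptors and proteases that bind or mature biglycan and decorin, 0 rose and 0 fell (before adjustment, p was under 0.05 for 2 higher and 2 lower), with a median of 0.0017. The largest difference among them was that of Bmp4, a BMP ligand, with levels of 9.90, 10.10 and 10.14 in controls and 9.57, 9.09 and 9.64 with fibrinogen. All fibrinogen arrays lay below the controls, and the difference of -0.61 ± 0.14 (SE) had an adjusted p of 0.0600 (limma). In this list 1 gene, Bmp4, was lower after median centring, without dim genes, with trended and robust spread and with array weights. Without dim genes 2 genes were higher, Bmp1 and Met, and 1 was higher with array weights (Bmp1) and without fibrinogen 3 (Met). Sdc3, Bmp4, Bmp1 and Met were named after their values were seen.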
